A study of Mus musculus with 20 samples.

Results

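DNA methylation is written, read and removed by a small set of enzymes and binding proteins, and 9 of their genes were followed here among the 24062 genes measured in mouse microglia. They were taken by symbol: the writers Dnmt1, Dnmt3a and Dnmt3b, the erasers Tet1, Tet2, Tet3 and Tdg, and the readers Uhrf1 and Mbd2. RNA was sequenced from 20 male mice of the B6D2F1/J background, of which 6 mThy1-α-synuclein and 4 wild-type mice were 7 months old, and 5 and 5 were 10 months old. The mThy1-α-synuclein mice (labelled HEM, and called transgenic below) carry full-length human wild-type α-synuclein behind the murine Thy-1 promoter, inserted on the X chromosome, whereas the wild-type littermates lack it. That promoter is active mainly in neurons, so the transgene is not directed at the microglia that were sampled. Each library holds the RNA of 1 mouse, taken from its brain by magnetic bead selection, with CD11b beads in the study's methods and IBA1 beads in the labels. DNA methylation was measured in the same mice but is not analysed here, so the values below are RNA levels of the machinery and not methylation.

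In mammals, a methyl group is added to cytosine almost always where guanine follows it, at so-called CpG pairs. DNMT3A and DNMT3B place new marks. DNMT1 copies existing marks onto the new strand at replication, where UHRF1 recognises DNA that is methylated on a single strand and recruits it. TET enzymes oxidise the methyl group step by step, and TDG cuts out the late oxidation products so that base excision repair can restore cytosine. MBD2 binds methylated CpG pairs and brings the nucleosome remodelling and deacetylase (NuRD) complex to them. Microglia divide slowly in the adult brain, and loss of DNMT3A or TET2 in blood and myeloid cells is known to alter their self-renewal and inflammatory gene expression.

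Promoter sequences from RefSeq (build GRCm38.p6), taken as the 250 bases before each annotated start, were at hand for 8 of the 9 genes with 13 start sites in all. They are shown for the 4 genes on which the results below turn. Strings of the E2F type, bound by factors that switch on S phase genes, were searched on both strands (TTTCGCGC, TTTGGCGC, TTTCCCGC and TTTGCCGC). A window that held more than 1 of them was counted once. Any of these strings was in 1.86% of 32851 promoter windows of the same length, and it was in 2 of the 13 windows of the 8 genes, 1 of the 3 of Dnmt1 and 1 of the 2 of Uhrf1. Both of these held TTTCGCGC, which was in 0.256% of windows. In Uhrf1 the string began 185 bases before one of its start sites, in a window that met no annotated exon (chr17:56304063-56304312, plus strand). The string is in capitals.
Uhrf1: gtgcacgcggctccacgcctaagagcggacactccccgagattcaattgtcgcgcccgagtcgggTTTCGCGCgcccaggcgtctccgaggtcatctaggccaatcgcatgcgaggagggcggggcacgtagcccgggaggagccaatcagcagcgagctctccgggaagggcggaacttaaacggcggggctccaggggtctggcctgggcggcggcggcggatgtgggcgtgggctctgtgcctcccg
In Dnmt1 it began 219 bases before a start site and read on the opposite strand, and the 30 bases around it are given with the reverse complement GCGCGAAA in capitals (chr9:20952824-20952853, minus strand).
Dnmt1: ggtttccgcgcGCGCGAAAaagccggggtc
The Tet2 window held 51 CpG pairs, a number reached by 0.067% of promoter windows, whereas the median window held 6. CpG pairs are in capitals (chr3:133544391-133544640, minus strand).
Tet2: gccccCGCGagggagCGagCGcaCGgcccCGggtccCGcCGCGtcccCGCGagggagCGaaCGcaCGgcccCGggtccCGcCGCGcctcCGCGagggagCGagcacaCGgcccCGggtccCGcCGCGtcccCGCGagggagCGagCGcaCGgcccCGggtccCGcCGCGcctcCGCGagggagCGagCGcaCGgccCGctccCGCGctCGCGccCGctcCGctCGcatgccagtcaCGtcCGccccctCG
The Tet1 window held 15 CpG pairs, as many as or fewer than 27.3% of windows, and its last 88 bases, which meet no annotated exon, held 6 of them (chr10:62887325-62887412, minus strand).
Tet1: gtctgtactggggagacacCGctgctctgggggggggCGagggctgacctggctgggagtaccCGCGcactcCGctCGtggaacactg
The GC box GGGCGG, searched on both strands, was in all 4 of these windows taken whole, and in 32.7% of all windows. A match of letters is a description of the window and not a binding site.

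Values are normalized counts, that is, reads per gene divided by a DESeq2 size factor of each mouse, and a fold change is on the scale log2(value + 1) with transgenic minus wild-type. Between 33404096 and 77806399 reads per mouse were counted on genes (median 49006014.5). Genes were compared within an age by limma's moderated test across all genes that passed a filter on low values, with p-values adjusted by the Benjamini-Hochberg method and a cutoff of 0.05. The mouse Thy1 gene, which shares its promoter with the transgene, lay between 392 and 1298 normalized counts in the 7-month transgenic mice and between 1117 and 1741 in the 10-month ones, against at most 47.6 in every wild-type mouse, so every mouse matched its genotype label. All 14 microglial markers were detected in every group, with Csf1r at 340312 or more and P2ry12 at 203983 or more in every mouse, and together they made up 4.54% to 5.07% of all normalized counts. Lists of markers of other cells made up from 0.0026% (lymphocytes) to 0.608% (neutrophils), and no list marker in the table was at 0 throughout a group. Because the RNA is bulk, a change in the share of cells of a type cannot be told apart from a change in RNA per cell.

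Per kilobase of exon, Mbd2 was the most abundant of the 9 genes, with group means between 1714 and 2069 normalized counts per kb, which placed it between percentiles 87.7 and 89.4 of the genes with a known exon length. Dnmt1 followed at 391 to 469, Dnmt3a at 302 to 404, Tet3 at 247 to 327 and Tet2 at 176 to 274 normalized counts per kb. Uhrf1 stood lower, at 91.5 to 132. The lowest detected members were Tet1, at 20.4 to 44.3, and Dnmt3b, at 29.2 to 37.7, both between percentiles 19.2 and 25.2. The exon lengths are from GENCODE M21 and the annotation used for counting is not given in the sources used here, so these levels depend on that length.

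Of the 9 genes, 8 passed the filter at each age, and 1 passed the cutoff for the genotype, Tet1 at 10 months. This single call is near the share of all genes and held in 10 of 18 other settings. At 7 months limma called 0 of the 8 (background 4.93% of 13887 genes, 2.23% higher and 2.7% lower), and edgeR and DESeq2 likewise called 0. Dnmt3a and Mbd2 had an unadjusted p under 0.05, as did 21.3% of all genes. At 10 months it called 1 of the 8 (background 7.67% of 13627 genes, 3.88% higher and 3.79% lower), and 3 had an unadjusted p under 0.05 (Tet1, Tet2 and Mbd2), beside 23.5% of all genes. For the difference between the ages it called 0 of the 8 (background 6.36% of 14457 genes, 3.74% more positive and 2.62% more negative), with Tet1 alone under 0.05 before adjustment beside 21.9% of all genes, and edgeR and DESeq2 called 0 as well. In no member did the genotypes separate completely at either age, whereas 7.53% of all genes at 7 months and 7.27% at 10 months did. The log2 fold change was above 0 in 5 of the 8 genes at 7 months and 4 at 10 months, and its difference between the ages in 5, beside 50.2%, 49.5% and 50.1% of all genes. The median log2 fold change of the 8 genes was 0.07 at 7 months and 0.02 at 10 months, beside 0.00 over all genes tested at either age.

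**Figure D1:**
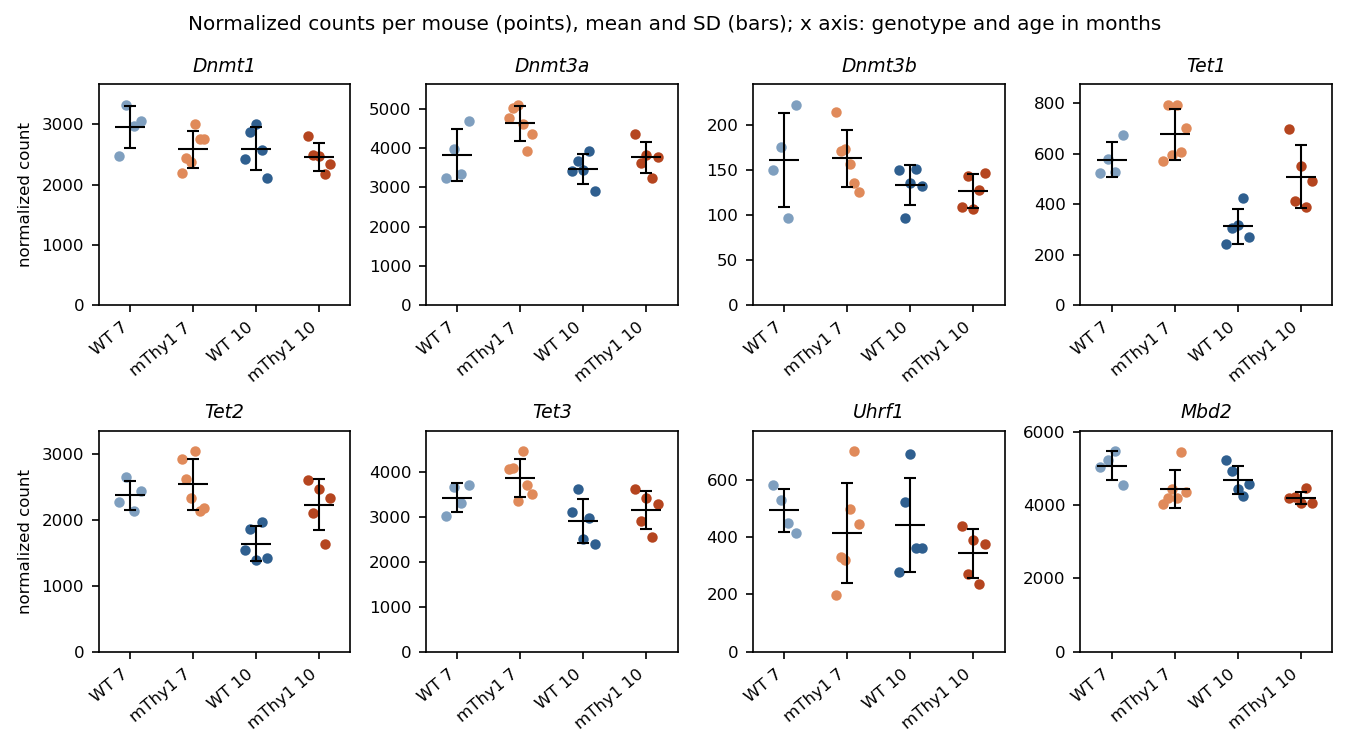
Normalized counts of the 8 detected genes in each mouse (points), with the mean and SD of each group (black bars); each y axis starts at 0, and the x axis gives genotype (WT, wild-type; mThy1, transgenic) and age in months. In Tet1 the 10-month wild-type mice lay between 241 and 425 and the transgenic mice between 389 and 698, and in every panel the genotypes of an age overlap.

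**Figure D2:**
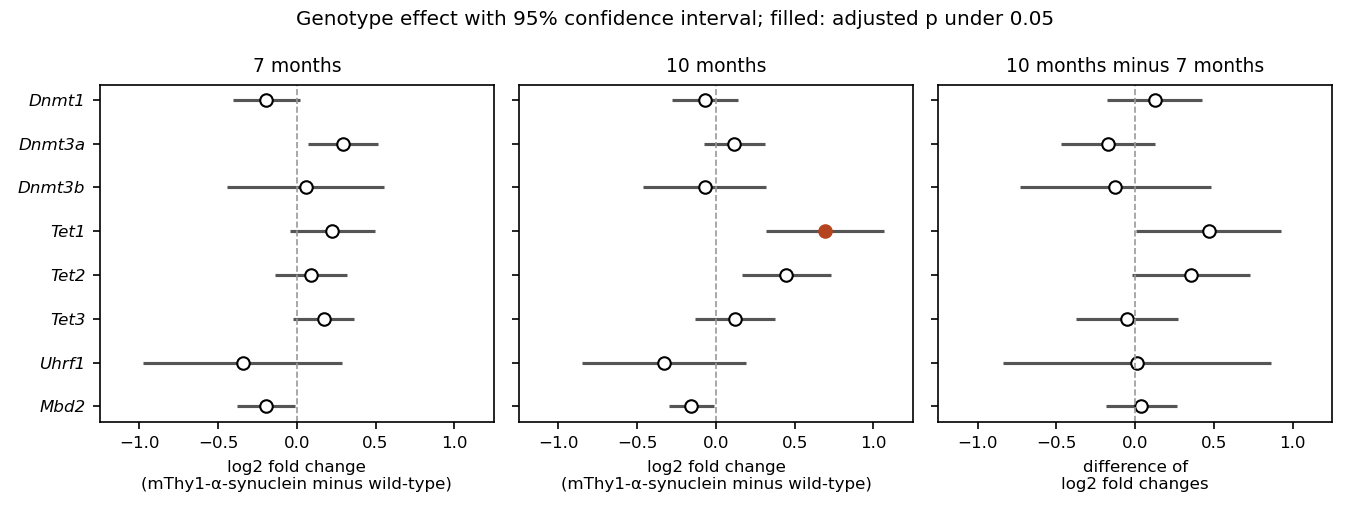
Log2 fold change between the genotypes with its 95% confidence interval at 7 months, at 10 months, and the difference of the ages; a filled point has an adjusted p under 0.05. Tet1 at 10 months, at 0.69, is the filled point, and the intervals of Uhrf1 are the widest at both ages.

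Among the erasers, Tet1 (chr10:62804570-62908996, minus strand) alone passed limma's cutoff, at 10 months, where Tet2 came close (adjusted p = 0.0547). TET1 carries a CXXC domain, which binds CpG-rich DNA. In 10-month wild-type mice its normalized counts were 241, 305, 319, 425 and 272, and in transgenic mice they were 698, 412, 550.0, 389 and 492. Wild-type replicate 4 lay above 2 of the 5 transgenic mice, and all other wild-type mice lay below the whole of that group. Tet1 was therefore 1.62-fold higher in transgenic mice, from 313 ± 69.6 to 508 ± 124 (SD, n = 5 and 5), with a log2 fold change of 0.69 ± 0.18 (SE) and an adjusted p of 0.0301. At 7 months the wild-type mice held 523, 579, 529 and 673 and the 6 transgenic mice ranged from 570.2 over a median of 653 to 794. Here the log2 fold change was 0.23 ± 0.13, with an adjusted p of 0.318. The difference between the ages was 0.47 on the log2 scale with a 95% interval from 0.00 to 0.93 (limma, adjusted p = 0.223), so a larger change at 10 months was not shown after adjustment.

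The call of Tet1 depended on which mice were in the fit. It was kept without transgenic replicate 2 or 4 or wild-type replicate 4 (adjusted p = 0.0337, 0.0173 and 0.00945). It was lost without transgenic replicate 1, 3 or 5 (0.0697, 0.0735 and 0.0599) and without wild-type replicate 1, 2, 3 or 5 (0.0697, 0.0658, 0.0514 and 0.0690). Its log2 fold change stayed between 0.57 and 0.81 throughout.

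Tet2 (chr3:133463679-133545139, minus strand), the TET enzyme most often mutated in clonal blood disorders, showed the same order of groups with a smaller difference. At 10 months wild-type mice held 1544, 1862, 1390.0, 1977 and 1419 normalized counts, and transgenic mice 2616, 2110.2, 2476, 1643 and 2341. Apart from transgenic replicate 4, which lay within the wild-type range, each mouse of that group was above all wild-type mice. The log2 fold change was 0.45 ± 0.13, that is 1.36-fold, and its adjusted p of 0.0547 missed the cutoff. It passed the cutoff with edgeR (adjusted p = 0.0450), DESeq2 (0.0127), TMM-scaled log2 CPM in limma (0.0491) and a fit of all 20 mice (0.0346), and also without transgenic replicate 4 (0.0105) or wild-type replicate 4 (0.0278). At 7 months Tet2 ranged from 2133 to 2651 in wild-type and from 2143 to 3049 in transgenic mice, with a log2 fold change of 0.09 ± 0.11. The difference between the ages was 0.36 (adjusted p = 0.253).

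Tet3 (chr6:83362373-83459084, minus strand) was the most abundant TET gene per kilobase and passed the test at neither age. It ranged from 2387 to 3611 normalized counts in 10-month wild-type mice and from 2544 to 3616 in transgenic mice, and the log2 fold change was 0.12 with a 95% interval from -0.13 to 0.37. At 7 months it was 0.17, with an interval from -0.02 to 0.37 (adjusted p = 0.296). When the TET genes were set against each other per kilobase, Tet3 made up 55.6% ± 3.18 of their sum in 10-month wild-type mice and 49.5% ± 1.22 in transgenic mice, while Tet2 made up 39.8% ± 2.38 and 44.4% ± 1.19 and Tet1 4.65% ± 0.949 and 6.10% ± 0.690 (SD, n = 5 and 5). At 7 months the shares of Tet3 were 49.7% ± 1.67 and 50.8% ± 1.65 (n = 4 and 6). The shares are a description and were not tested.

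Some values of other cells moved with the genotype at 10 months, beside Tet1 and Tet2. Summed neutrophil markers ranged from 162521 to 409261 normalized counts in wild-type and from 75305 to 204392 in transgenic mice, monocyte markers from 31307 to 60454 and from 17961 to 30679, and border macrophage markers from 27301 to 37804 and from 20273 to 26062. Lymphocyte markers, the scarcest, ranged from 1707 to 3260 and from 1041 to 1398, and 6 of 11 tested were called lower (3.79% of all genes). For the monocyte, border macrophage and lymphocyte markers the genotypes did not overlap. Of 14 astrocyte markers, 13 had a log2 fold change above 0 (median 0.30), and 1 was called higher (3.88% of all genes). Of the 14 microglial markers, 12 lay above 0 and 2 below it, with a median of 0.17 over the list. Tmem119 was among those below 0 (-0.19, limma adjusted p = 0.189). In transgenic mice 4 of the 14 microglial markers were called higher (3.88% of all genes). These were Cx3cr1, Sall1, Itgam and Siglech, whose calls held in 4, 10, 7 and 10 of 18 settings. The part of these cells in the values of Tet1 and Tet2 was not tested.

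**Figure D3:**
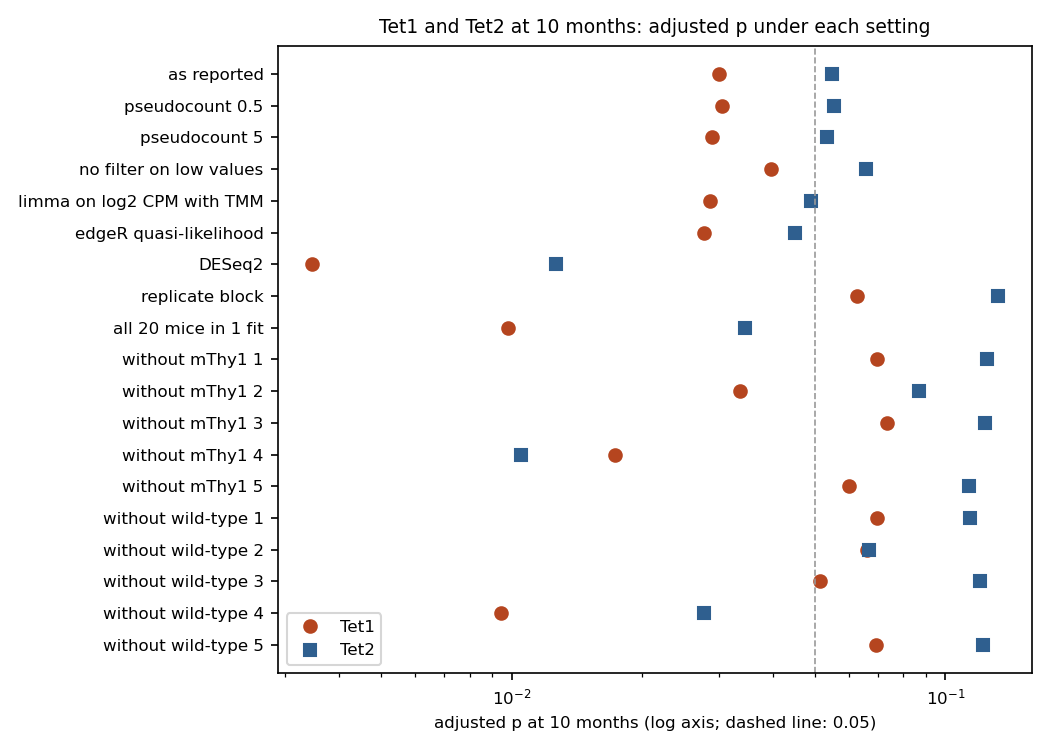
Adjusted p of Tet1 (circles) and Tet2 (squares) at 10 months under each way of processing and with each mouse left out, on a log axis, with a dashed line at 0.05. For Tet1 the values run from 0.00347 with DESeq2 to 0.0735 without transgenic replicate 3, and for Tet2 from 0.0105 to 0.132.

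Tdg (chr10:82629828-82650799, plus strand), the glycosylase that follows the TET enzymes, was listed at 0 in 18 of 20 mice. The other 2 mice held 1 and 3 reads (transgenic replicate 3 and wild-type replicate 3 at 10 months), so 4 reads were seen in all. A count of 0 allows up to 3 reads in a library, here 0.0386 to 0.0898 in every 1000000 reads counted. The gene is broadly expressed in most tissues, and its row is uncertain. Its transcript is 98.7% identical over 2968 of 3502 bases to the processed pseudogene Tdg-ps, and 99.2% and 99.3% identical over 1194 and 1193 bases to Gm9855 and Gm5597. The handling of reads that map to several places is not given in the sources used here, and of these copies the table held Gm9855, also at 0. The cause of the zeros was not tested. Of its exon bases, 10.1% overlap Glt8d2 on the opposite strand. Tdg was not compared between groups.

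No writer passed the test at either age. Dnmt1 (chr9:20907209-20959888, minus strand), the maintenance enzyme, held 2481, 3325, 2969 and 3050.0 normalized counts in 7-month wild-type mice, and 2186 to 3006 with a median of 2597 in transgenic mice. The groups overlapped, and the log2 fold change was -0.19 with a 95% interval from -0.41 to 0.02 (adjusted p = 0.286). At 10 months the ranges were 2111 to 2999.6 and 2182 to 2809.7, with a log2 fold change of -0.07 and an interval from -0.28 to 0.14.

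Dnmt3a (chr12:3806007-3914443, plus strand), the main de novo enzyme in adult cells, held 3251, 3989, 3347 and 4686 normalized counts in 7-month wild-type mice and 3919 to 5109, with a median of 4693, in transgenic mice. Wild-type replicate 4 lay above 3 of the 6 transgenic mice and replicate 2 above 1 of them, while replicates 1 and 3 lay below all. The log2 fold change of 0.29 ± 0.10 had an adjusted p of 0.122 by limma, which became 0.0384 without wild-type replicate 4. At 10 months wild-type mice ranged from 2902 to 3930.0 and transgenic mice from 3235 to 4354, with a log2 fold change of 0.12 (95% interval -0.08 to 0.31). An antisense gene, Dnmt3aos, shares 133 of its exon bases, or 1.16%, and since strand in the counting is not given in the sources used here, reads there cannot be assigned.

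Dnmt3b (chr2:153649450-153687730, plus strand), the de novo enzyme of early development, was the lowest writer, at 126 to 214 normalized counts in the 7-month transgenic mice and 96.8 to 222 in wild-type mice. Its log2 fold change was 0.06 (95% interval -0.44 to 0.55) at 7 months and -0.07 (-0.46 to 0.32) at 10 months. Per kilobase, the sum of the 3 writers was 839 ± 109.5 in wild-type and 852 ± 38.6 in transgenic mice at 7 months, and 745 ± 78.9 and 747 ± 68.6 at 10 months. Dnmt3a made up 39.5% ± 2.72 of that sum in 7-month wild-type and 47.4% ± 4.23 in transgenic mice, and Dnmt1 56.1% ± 3.71 and 48.2% ± 4.97 (SD, n = 4 and 6). At 10 months the shares of Dnmt3a were 40.7% ± 2.37 and 43.8% ± 1.08. These shares were not tested.

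Of the readers, Uhrf1 (chr17:56303321-56323486, plus strand), which brings DNMT1 to newly copied DNA, varied widely from mouse to mouse. In 7-month transgenic mice it ranged from 198 over a median of 388 to 699 normalized counts, and wild-type mice held 579.7, 528, 449.9 and 413. At 10 months wild-type mice held 277, 522, 689.8, 363 and 361 and transgenic mice 439.5, 272, 389.5, 238 and 374. The coefficient of variation was 42.0% in the first of these groups, the highest among the 8 tested members in any group, and the genotypes overlapped at both ages. The log2 fold change was -0.34 with a 95% interval from -0.98 to 0.29 at 7 months (adjusted p = 0.531) and -0.33 with an interval from -0.85 to 0.19 at 10 months (adjusted p = 0.442). A processed pseudogene, Gm5648, is 98.3% identical to Uhrf1 over 1590 of 3586 bases. It was not among the genes measured, and whether it drew reads of Uhrf1 was not tested.

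Mbd2 (chr18:70568189-70626131, plus strand), the reader that binds methylated CpG pairs, had its smallest spread in 10-month transgenic mice, with a coefficient of variation of 3.98%. At 10 months wild-type mice held 5226, 4921, 4447, 4254 and 4583 normalized counts and transgenic mice 4199, 4204, 4062, 4469.6 and 4059. In the transgenic group 4 of the 5 mice lay below every wild-type mouse and replicate 4 lay above 2 of them. The log2 fold change was -0.16 ± 0.07 (adjusted p = 0.178). At 7 months wild-type mice held 5042, 5219, 5468 and 4541, and 5 of the 6 transgenic mice lay between 4023 and 4432. The remaining one, replicate 5, stood at 5435, and the log2 fold change was -0.20 ± 0.09 (adjusted p = 0.210). Neither passed the cutoff.

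Across the 4 groups, Tet1, Tet2, Tet3 and Dnmt3a had the same order of mean levels, highest in 7-month transgenic mice, then 7-month wild-type, 10-month transgenic and 10-month wild-type mice. Dnmt1, Uhrf1 and Mbd2 shared another order, from 7-month wild-type over 10-month wild-type and 7-month to 10-month transgenic mice. Neighbouring groups in these orders overlapped in every case. The ages were normalized and processed apart, so age and processing cannot be told apart and levels were not tested between the ages.

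Since maintenance methylation is tied to replication, each member was set against a cell division score, the mean over 30 S phase and mitosis genes of log2 values taken as standardized deviations from the group mean. Over 20 mice and 8 relations, 3 passed the cutoff (two-sided permutation test with 100000 resamples within groups, Benjamini-Hochberg adjusted). The share of all genes past this cutoff was not computed, so the count has no background beside it. Uhrf1 followed the score closely, with Pearson's r = 0.95 and Spearman's rho = 0.92 (both p = 1e-05, the smallest these permutations can give, adjusted p = 8e-05). Its r was 0.96 within the 7-month and 0.97 within the 10-month mice, and 0.91 without the 2 mice farthest from the median score (permutation p = 3.0e-05), which were transgenic replicates 1 and 5 at 7 months. These mice also held the lowest and the highest Uhrf1 counts of all, 198 and 699.

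Dnmt1 rose with the score less steeply, with r = 0.68 (permutation p = 0.00324, adjusted p = 0.0130) and rho = 0.71 (p = 0.00342, adjusted p = 0.0137). Its r was 0.65 and 0.78 within the ages and 0.64 without the 2 farthest mice, where the permutation p of 0.0152 became 0.0609 after adjustment. Dnmt3b ran the other way, with r = -0.57 (permutation p = 0.0098, adjusted p = 0.0261), rho = -0.62 (p = 0.0075, adjusted p = 0.0200), and -0.59 and -0.52 within the ages. Without the 2 farthest mice its r was -0.45 (permutation p = 0.0733), so the relation rested in part on them, and leaving out transgenic replicate 1 or 5 or wild-type replicate 4 at 7 months also brought the adjusted p above the cutoff (0.113, 0.0592 and 0.0642). For Tet1, Tet2, Tet3, Dnmt3a and Mbd2, r lay between -0.27 and 0.36 and no relation passed (adjusted p of 0.335 or more). Within the ages r changed sign for Dnmt3a (-0.62 at 7 months, 0.40 at 10 months), Mbd2 (0.64 and -0.35), Tet2 (-0.30 and 0.19) and Tet3 (-0.05 and 0.22).

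**Figure D4:**
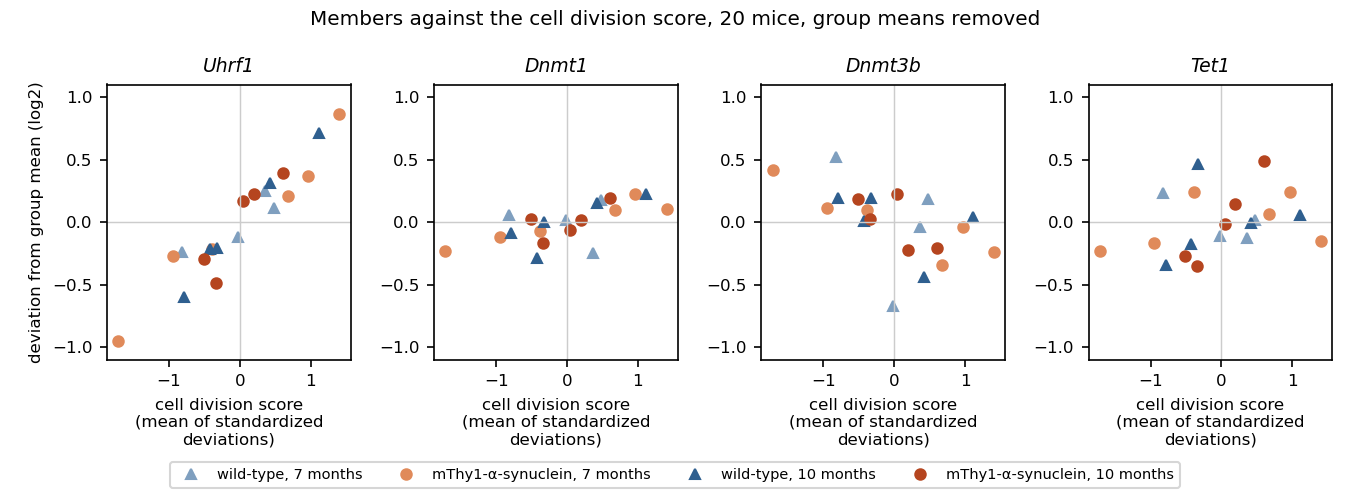
Deviation of log2 normalized counts from the group mean (y axis) against the cell division score (x axis) for Uhrf1, Dnmt1, Dnmt3b and Tet1 in 20 mice, coloured by group. Uhrf1 falls on a steep line (r = 0.95), Dnmt1 on a flatter one (r = 0.68), Dnmt3b slopes down (r = -0.57) and Tet1 scatters (r = 0.32).

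Members also varied together from mouse to mouse within groups, a comparison chosen after the values were seen. Of the 28 pairs of the 8 genes, 6 passed the cutoff by Pearson's r, all of them positive, and 12 had an unadjusted p under 0.05 (two-sided permutation test with 100000 resamples within groups). Of these 12, r was negative for Mbd2 with Dnmt3a (-0.55), Tet1 (-0.50), Dnmt3b (-0.50) and Tet2 (-0.48). It was also negative for Dnmt3b with Uhrf1 (-0.50). By rho, Dnmt3b with Uhrf1 (-0.61, adjusted p = 0.0432), Tet1 with Mbd2 (-0.55, 0.0484) and Dnmt1 with Tet1 (0.58, 0.0484) also passed. Tet1 with Tet2 did not pass by rho (0.074). The share among pairs of other genes was not computed. Tet2 and Tet3 were closest, with r = 0.83 (adjusted p = 0.0042), rho = 0.75 (adjusted p = 0.0286) and r of 0.80 and 0.85 within the ages. Dnmt3a went with Tet2 (r = 0.67, adjusted p = 0.0199), Tet1 (r = 0.64, adjusted p = 0.0255) and Tet3 (r = 0.61, adjusted p = 0.0356), each with a larger r at 10 months (0.87, 0.81 and 0.79) than at 7 months (0.48, 0.49 and 0.44), a difference that was not tested. Dnmt1 went with Uhrf1 (r = 0.66, adjusted p = 0.0302) and Tet1 with Tet2 (r = 0.63, adjusted p = 0.0498). Without the 2 mice farthest from the median of the first gene, Tet2 with Tet3 (r = 0.84), Dnmt3a with Tet2 (0.74) and Dnmt1 with Uhrf1 (0.86) passed and the others did not (adjusted p = 0.0535 for Dnmt3a with Tet1, 0.140 with Tet3, and 0.192 for Tet1 with Tet2). Genes of a library share its depth and quality, and the part of these was not tested.

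Among all genes, those with the most similar deviations over the 20 mice were Top2a (r = 0.94), Tpx2 (0.93) and Cep55 (0.93) for Uhrf1, and Myh9 (0.88), Eif4g3 (0.86) and Ncapg2 (0.84) for Dnmt1. For Tet1 they were Csmd3 (0.92), Srgap2 (0.90) and Peak1 (0.90), and for Tet2 Kcnrg (0.95), Ubn2 (0.92) and 9930111J21Rik1 (0.91). Gm608 (0.93), Kmt2d (0.92) and Ambra1 (0.90) came first for Tet3, Cep192 (0.91), Fam46c (0.91) and Zfyve26 (0.91) for Dnmt3a, Mir8094 (0.78), Zw10 (0.78) and AW146154 (0.78) for Dnmt3b, and Atg3 (0.90), Rpf1 (0.83) and Ppm1g (0.81) for Mbd2. These are the highest of many correlations and are given without a test.

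Genes that work beside the members were described as lists, each set against the median of all genes, 0.00 at both ages. Of 8 tested partners of maintenance, which include the deubiquitinase Usp7 and the remodeller Hells, 1 passed the cutoff at 10 months (7.67% of all genes), with a list median of -0.13. This was Uhrf2, a relative of Uhrf1 that binds hydroxymethylcytosine, at 3382 ± 231 in wild-type and 2839 ± 208 in transgenic mice (log2 fold change -0.25, adjusted p = 0.0468), a call held in 5 of 18 other settings and weakest without transgenic replicate 5 (adjusted p = 0.113). At 7 months limma, edgeR and DESeq2 called 0 of the 8, and 1 had an unadjusted p under 0.05.

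Of the genes listed for base excision and other removal steps, not all of them enzymes, 3 of 24 tested fell at 10 months (3.79% of all genes). At 7 months 1 of 25 rose (2.23% of all genes), and the medians were -0.10 at 10 months and -0.03 at 7 months. Those that fell were Gadd45a, at 881 ± 285 in wild-type and 331 ± 91.7 in transgenic mice (log2 fold change -1.38, adjusted p = 0.0179), Gadd45b (-0.62, adjusted p = 0.0135) and the repair polymerase Polb (-0.34, adjusted p = 0.0199). In the same mice 11 of 11 neutrophil and 8 of 8 monocyte markers had a log2 fold change below 0, with medians of -1.11 and -1.07, and their part in these values was not tested. The Gadd45 genes are stress-induced and have been linked to active demethylation. The calls of Gadd45a and Gadd45b held with each mouse left out, that of Gadd45a was lost in the fit of all 20 mice (adjusted p = 0.0629), and that of Polb was lost without transgenic replicate 3 (adjusted p = 0.0522). At 7 months Apobec3, a cytidine deaminase that restricts retroviruses, rose by 0.28 (adjusted p = 0.0402), a call held in 8 of 18 settings and weakest without wild-type replicate 3 (0.106).

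The list of other methyl-CpG readers is a loose grouping that also holds genes, such as Mbd3, not taken here as such readers. Among its 14 genes, 1 passed at 7 months (4.93% of all genes), Mbd3, the partner that takes the place of Mbd2 in the NuRD complex. It held 2359 ± 121 normalized counts in transgenic mice where wild-type mice held 2821 ± 105 (a log2 fold change of -0.26 with adjusted p = 0.0411), and the genotypes did not overlap. The call held in 6 of 18 settings and was weakest without wild-type replicate 3 (adjusted p = 0.115). At 10 months limma, edgeR and DESeq2 called 0 of the 14, and 2 had an unadjusted p under 0.05. The median was 0.07 at either age. Of 15 NuRD genes, 1 fell at 7 months (2.7% of all genes), the brain remodeller Chd5 (-1.21, adjusted p = 0.0380, held in 11 of 18 settings, 0.154 without wild-type replicate 1), with a list median of -0.13. Neuron markers were lower in the same mice, with a median of -1.08 over 18 tested, and they were not alone. Below 0 were 12 of 14 astrocyte (median -1.24) and 12 of 12 lymphocyte markers (-1.09). So were 10 of 12 oligodendrocyte (-0.76) and 10 of 12 endothelial markers (-0.60), whereas 9 of 14 microglial markers lay above 0. The part of these cells in the value of Chd5 was not tested. At 10 months 3 of the 15 passed (7.67% of all genes). The remodeller Chd4 (0.24, adjusted p = 0.0385, held in 8 of 18 settings, 0.0869 without transgenic replicate 1) and Sall1 (0.30, adjusted p = 0.0266, held in 10 of 18, 0.0672 without transgenic replicate 5) rose, Cdk2ap2 fell (-0.50, adjusted p = 0.0165), and the median was 0.04. Sall1 is also a microglial identity gene and stands in that marker list as well.

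In the methyl donor cycle, 2 of 19 tested genes rose at 10 months (3.88% of all genes) and kept the call in all 18 settings, with a list median of -0.02. Mtr, methionine synthase, rose from 3395 ± 277 in wild-type to 4416 ± 384 in transgenic mice (log2 fold change 0.38, adjusted p = 0.0126), and Ahcyl1, a relative of adenosylhomocysteinase that acts in calcium signalling, from 5299 ± 216 to 6631 ± 270.0 (0.32, adjusted p = 0.0061). At 7 months limma and edgeR called 0 of the 19 and DESeq2 called 1, and 4 had an unadjusted p under 0.05, with a median of 0.01. All 30 cell division genes were tested, and 28 of them had a log2 fold change below 0 at each age, beside 50.2% of all genes above 0 at 7 months and 49.5% at 10 months. The medians were -0.33 and -0.34. At each age the calls in this list were near the share of all genes (4.93% and 7.67%). Stmn1 fell at 7 months (-0.83, adjusted p = 0.0479, held in 9 of 18 settings, 0.134 without wild-type replicate 3), while at 10 months E2f1 fell (-0.79, adjusted p = 0.0055) and the helicase subunit Mcm3 rose (0.48, adjusted p = 0.0088), both in all 18 settings. The genes of this list move together within a mouse, so its count is not 30 separate observations.

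Genes whose silence or allelic expression is known to depend on DNA methylation were looked at last. Of 23 tested imprinted genes, 4 passed at 7 months (4.93% of all genes), with a median of -0.14. Igf2r rose (0.84, adjusted p = 0.0122), and Meg3 (-2.32, adjusted p = 0.0280), Nnat (-1.26, adjusted p = 0.0067) and Gnas (-0.25, adjusted p = 0.0488) fell. The calls of Meg3 and Gnas held in 11 and 4 of 18 settings and were weakest with 1 mouse left out without wild-type replicate 1 (adjusted p = 0.0893 and 0.149), that of Nnat held in all 18, and that of Igf2r in 17. Meg3 is also a neuronal RNA and stands among the neuron markers, of which 7 of 18 tested were called lower at 7 months (2.7% of all genes), their sum ranging from 4921 to 7687 normalized counts in wild-type and from 2179 to 3407 in transgenic mice. Markers of astrocytes, lymphocytes, oligodendrocytes and endothelial cells were mostly lower at 7 months as well. The part of neurons and these other cells in the imprinted genes was not tested. At 10 months 1 of 22 tested imprinted genes passed (7.67% of all genes), Mest, at 95.1 ± 7.58 in transgenic and 43.1 ± 13.2 in wild-type mice (1.17, adjusted p = 0.0121, in all 18 settings), with a median of 0.28. Of 11 tested germline genes, which are kept silent by promoter methylation in somatic cells, 1 rose at 10 months (3.88% of all genes), Tex11, at 83.0 ± 24.4 against 37.7 ± 16.9 (1.19, adjusted p = 0.0457, held in 6 of 18 settings, 0.115 without transgenic replicate 3), with a median of 0.35. At 7 months limma, edgeR and DESeq2 called 0 of 10 tested, 0 had an unadjusted p under 0.05, and the median was 0.03.

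**Figure D5:**
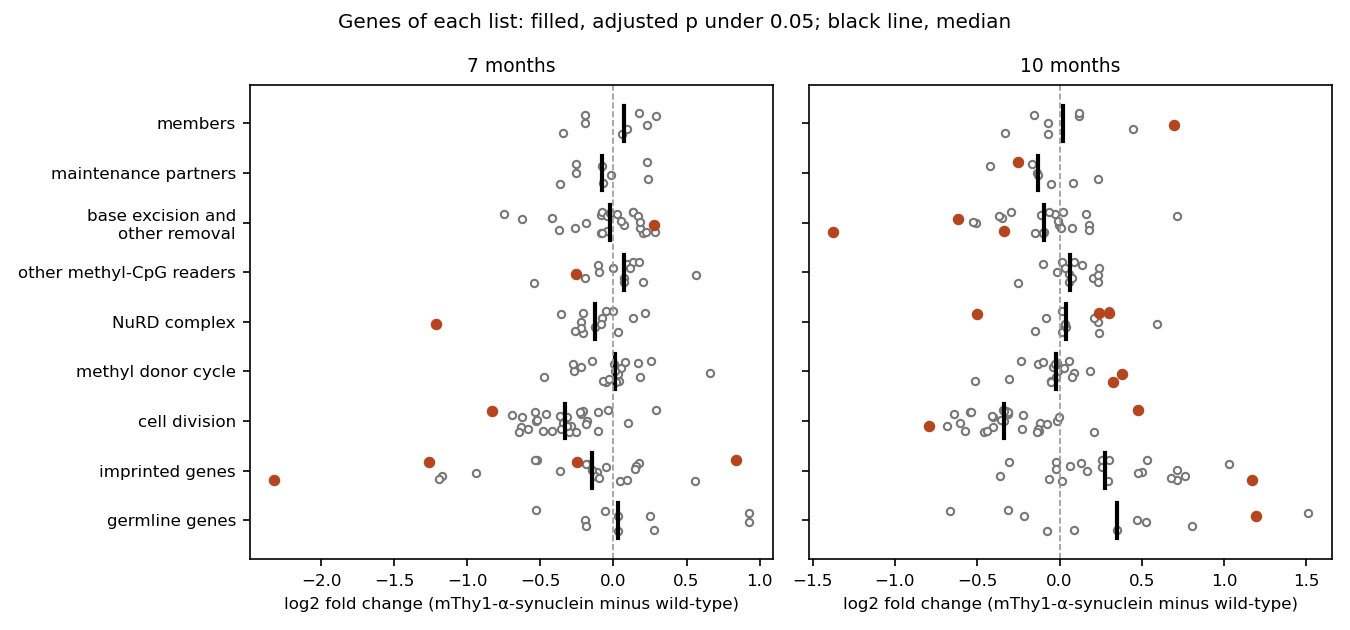
Log2 fold changes between the genotypes (x axis) at 7 and 10 months for the 8 detected members and the genes of each list (rows), with filled points for an adjusted p under 0.05 and a black line at the median of each list. The x axes of the ages differ in range; the cell division median lies at -0.33 and -0.34, and the imprinted gene median at -0.14 and 0.28.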

How the data were processed

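RNA of bead-selected brain cells from 20 mice was sequenced in a single run, after both genotypes of an age were processed together up to nucleic acid isolation. Reads were trimmed with Trim Galore 0.6.7, aligned with HISAT2 2.2.1 to mm10 and counted with featureCounts, per the submitters' processing notes and the study's methods. The deposited values are a signal per gene that the authors made by dividing counts by DESeq2 1.44.0 size factors within each age. The annotation, strand setting and treatment of multiply mapped reads are not given in the sources used here. Whole reads were recovered in all 20 mice by dividing by the value of 1 read (100.0% of values within 0.001 of a whole number). In 10-month transgenic replicate 5 that value was 1.003, close to 1, and its values were divided by it in the same way. The lowest chi-square per gene between mice of a group was 25.1 over 41 pairs, so no library was a copy of another in its group. Pairs across groups were not compared.

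Log2(value + 1) was fitted with limma 3.58.1 in R 4.3.3 (trend and robust, Benjamini-Hochberg adjusted), a test for values that are not counts, within each age for genes of at least 10 in at least 4 (7 months) or 5 (10 months) mice, and over both ages for the interaction (at least 4). edgeR 4.0.16 and DESeq2 1.42.0 on the recovered reads were alternatives, with other pseudocounts (0.5 and 5), no filter, TMM log2 CPM, a replicate block, a fit of all 20 mice and each mouse left out. The fits were tested on simulated data with 200 changed genes. p-values rest on separate mice. Correlations used deviations from group means and permutations within groups in Python 3.11.15 with scipy 1.17.1. Copies of members were found with blastn 2.17.0 (at least 95% identity over 300 bases). Intervals are 95%, and the floor for a count of 0 covers counting error only.

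The text names every member, list genes past the cutoff (up to 4 for each list, direction and comparison) and the 3 genes most like each member. Members and lists were chosen with earlier results of these data known. The unmatched promoter is that of Mbd2, which is named only. Methylation files were not used.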

Additional observations from a re-analysis of the deposited data

Results flagged for a closer look

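Among 128 groups of values of the members and the named list genes, 4 held a mouse far from the rest of its group, where about 5% are expected by chance. Each is given with the gap to the nearest mouse as a share of the whole range of the group. In 7-month transgenic mice, Mbd2 was high in replicate 5 (5435 normalized counts beside 4023 to 4432 in the others, share 0.7102), Apobec3 was high in replicate 1 (4410.3 beside 3633 to 3822, share 0.756) and Chd3 was high in replicate 4 (2871 beside 2059 to 2294, share 0.7102). In 10-month transgenic mice Mtr was low in replicate 4 (3735 beside 4510.3 to 4627, share 0.869).

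The genotype difference itself differed between the ages in 13 of 149 list genes tested, or 8.72% (limma interaction, 10 months minus 7 months on the log2 scale), beside 6.36% of all genes tested. Of the 8 members tested, 0 passed with limma, edgeR or DESeq2, and 1 had an unadjusted p under 0.05. Those with a more positive difference at 10 months were Meg3 (2.39, adjusted p = 0.0445), Chd5 (1.80, adjusted p = 0.0174), Nnat (1.74, adjusted p = 0.00785), Mest (1.69, adjusted p = 0.00461), Gnas (0.55, adjusted p = 0.00854), Chd3 (0.45, adjusted p = 0.0498), Chd4 (0.45, adjusted p = 0.0139) and Ahcyl1 (0.38, adjusted p = 0.0106). Those with a more negative one were Igf2r (-1.20, adjusted p = 0.00675), D2hgdh (-0.58, adjusted p = 0.0471), Uhrf2 (-0.48, adjusted p = 0.0158), Polb (-0.39, adjusted p = 0.0345) and Apobec1 (-0.35, adjusted p = 0.0294). With each mouse left out, the calls of Chd3, D2hgdh, Meg3, Polb and Apobec1 were lost at least once (highest adjusted p 0.106, 0.0961, 0.0945, 0.0706 and 0.0686). The ages were processed apart, so an age and a processing effect cannot be told apart, and neuron and astrocyte markers moved with the same contrast (median 2.01 over 18 and 1.55 over 14 tested genes). Their part was not tested.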

How the results depend on the processing

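At 10 months the members called were 1 as reported, 2 with TMM-scaled log2 CPM, 2 with edgeR, 2 with DESeq2 and 2 with all 20 mice in 1 fit, the added gene being Tet2, and 0 with the replicate block. Leaving out 1 mouse gave 0 to 2 at 10 months, 0 to 1 at 7 months and 0 to 0 for the interaction. Over all genes, DESeq2 called 1166 at 7 months and 1697 at 10 months, the replicate block 414 at 7 months, 916 at 10 months and 482 for the interaction, against 684, 1045 and 920. With 1 mouse left out the counts ran from 280 (without wild-type replicate 1) to 860 (without transgenic replicate 4) at 7 months, from 489 (without wild-type replicate 2) to 1232 (without wild-type replicate 4) at 10 months, and from 618 to 1097 for the interaction. The relations to cell division past the cutoff were 3, then 1 without the 2 farthest mice, and 2 to 3 with 1 mouse left out.

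Values near 0 changed sign: with 1 mouse left out, Dnmt3b at 7 months ran from -0.17 to 0.23, and the interaction of Dnmt3b from -0.30 to 0.10, of Tet3 from -0.12 to 0.030 and of Uhrf1 from -0.18 to 0.19 (-0.12 with edgeR and -0.12 with DESeq2). The correlation with cell division ran from -0.202 to 0.0894 for Tet2 and from -0.0277 to 0.201 for Tet3, and without the 2 farthest mice it was 0.224 for Tet2 and -0.0783 for Mbd2. The causes were not tested. Over all results and settings, 1660 values kept their direction and side of the cutoff or, for counts, stayed within 1.5 times; 17 fell out of the cutoff, 7 came into it, 26 changed sign and 153 counts moved further.

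Replicate numbers did not pair the mice: deviations of same-numbered mice correlated between -0.134 and 0.0995, and no mouse correlated best with its own number. With the replicate block the adjusted p at 10 months was 0.0624 for Tet1 and 0.132 for Tet2. It lost 16 of 34 calls in the lists, among them Igf2r at 7 months (0.0643) and the interactions of Uhrf2 (0.0535) and Chd5 (0.0716). Dnmt3b, at low counts, and Uhrf1, with a wide spread, have intervals that leave moderate changes undetected. The interval of Tet1 ran from -0.04 to 0.49 at 7 months, and from 0.32 to 1.07 at 10 months, where Tet1 was called.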
